A study of Mus musculus with 7 samples.

Results

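Somatostatin (Sst) interneurons of the striatum were taken as the nuclei that the deposited annotation calls IN-Sst, which were 288 of 4524 nuclei. They came from 3 wild type (WT) mice and 4 HttQ175/+ mice, a model of Huntington's disease in which 1 copy of Htt, the huntingtin gene, is replaced in every cell of the body by HttQ175, whose CAG repeat is expanded. All 7 were male and C57BL6/J. The age was 14 months in 6 mice and 15 months in HttQ175/+ replicate 1. Each mouse gave 1 droplet library of nuclei from flash-frozen striatum, read at the 3' ends of transcripts. Mice are the replicates, and their numbers are names without pairing. WT replicates 1 to 3 gave 18, 30 and 29 annotated nuclei, and HttQ175/+ replicates 1 to 4 gave 43, 67, 33 and 68. Together the annotated nuclei of a mouse held 42074 to 152312 unique molecular identifiers (UMIs, the count of RNA molecules). None of the annotated nuclei shared a barcode with another library, whereas 6 nuclei of the series did. The other interneurons in the annotation were 120 Pnoc/Pvalb and 73 cholinergic (Chat) nuclei, and 1809 nuclei were direct pathway spiny projection neurons (dSPNs). In profiles averaged over the nuclei of a mouse, fewer cells of a kind and less RNA per cell cannot be told apart.

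Sst interneurons are local inhibitory neurons that release the peptides somatostatin and neuropeptide Y, and the enzyme neuronal nitric oxide synthase, encoded by Nos1, lets them signal by nitric oxide. They arise from the medial ganglionic eminence, where the transcription factor Lhx6 directs their fate. In Huntington's disease the spiny projection neurons (SPNs), which are the output neurons of the striatum, are lost early, and these interneurons are known for being comparatively spared.

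The annotated nuclei were first checked against Sst, Npy and Nos1. Only 60 of the 288, or 20.8% (95% exact Clopper-Pearson interval 16.3 to 26.0), held a UMI of at least 2 of the 3 genes. All 3 were found in 49 nuclei, 16 held 1 and 212 held none. The 16 nuclei with 1 marker held Npy in 10 cases and Nos1 in 6, and Sst in none of them. The label was thus not borne out by these markers in most annotated nuclei at this depth, and the text below calls all 288 the annotated nuclei and the 60 the marker nuclei. The limit of 2 markers was chosen after seeing the data, and Sst, Npy and Nos1 levels in the marker nuclei are a description of that choice.

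Marker nuclei were few in every mouse. They numbered 6, 6 and 5 in WT replicates 1 to 3, or 33.3% of 18, 6 of 30 and 17.2% of 29 annotated nuclei. In HttQ175/+ replicates 1 to 4 they numbered 3, 12, 4 and 24, or 6.98%, 17.9%, 12.1% and 35.3%. The groups overlap, and HttQ175/+ replicate 4 alone gave 24 of the 60. Of all nuclei in the series with at least 2 of the markers, 60 of 70 carried the annotation, 4 were called oligodendrocytes, 2 dSPNs, 2 indirect pathway SPNs (iSPNs), 1 Chat and 1 Pnoc/Pvalb.

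**Figure D1:**
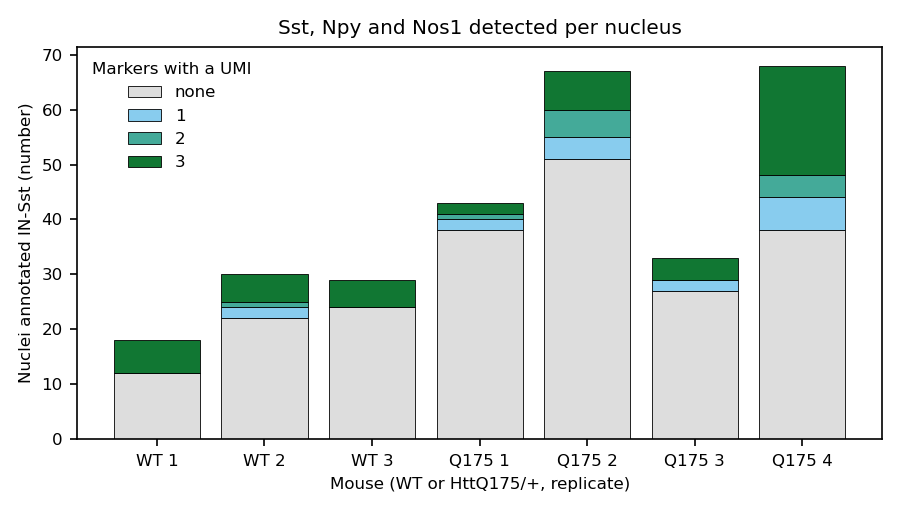
Number of annotated nuclei in each mouse (bar height), split by how many of Sst, Npy and Nos1 had a UMI (colors). Nuclei with no marker form the largest class in all 7 mice, from 12 in WT replicate 1 to 51 in HttQ175/+ replicate 2.

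Detection of the markers was set against cells that should lack them. Sst had a UMI in 57 of the 288 annotated nuclei (19.8%, exact interval 15.3 to 24.9), against 1.92% of oligodendrocytes and 0.332% of dSPNs. Npy had one in 23.3% of annotated nuclei, against 1.28% of oligodendrocytes and 0.608% of dSPNs. Nos1 had one in 21.2%, against 0.641% of oligodendrocytes and 1.16% of dSPNs. The median depth was 2119 UMIs per annotated nucleus, 2158.5 per oligodendrocyte and 2175 per dSPN. With every nucleus thinned to 1000 UMIs, which left no annotated nucleus out since the lowest held 1132, the shares were 19.4% for Sst, 20.1% for Npy and 18.8% for Nos1. Intervals and floors cover counting error only.

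The 3 genes were found together. Of the 57 annotated nuclei with a UMI of Sst, 49 (86.0%) held all 3 genes; the same 49 were 73.1% of the 67 nuclei with Npy and 80.3% of the 61 with Nos1. The marker nuclei held a median of 12 Sst UMIs, with a range of 0 to 53. They held a median of 5.5 Npy UMIs with a range of 0 to 28, and a median of 4 Nos1 UMIs with a range of 0 to 18. All 57 nuclei with Sst were marker nuclei, which in part follows from how that set was chosen.

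**Figure D2:**
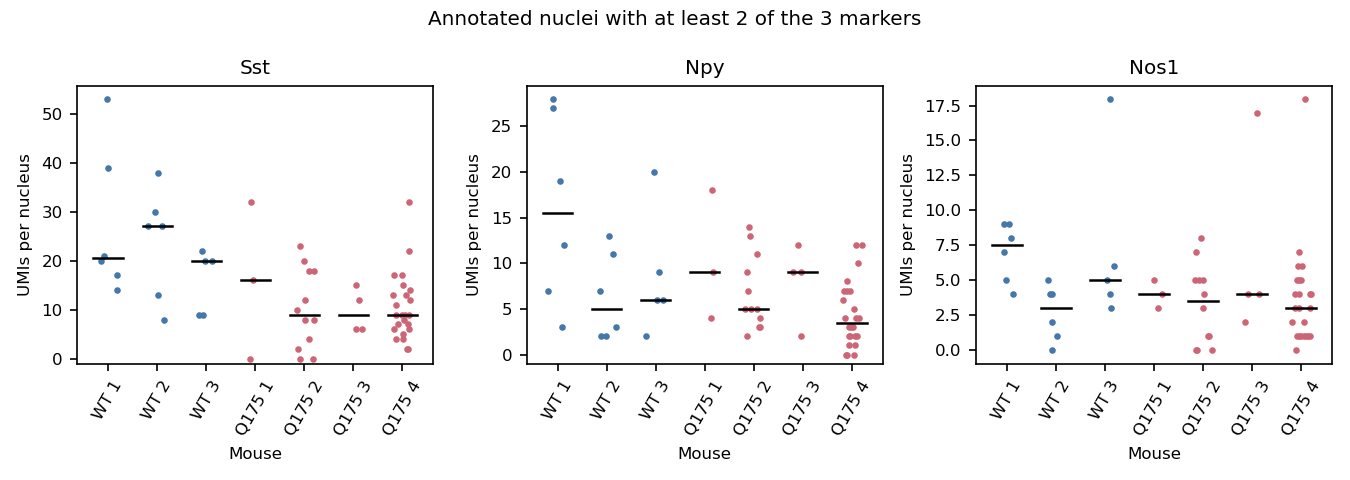
UMIs of Sst, Npy and Nos1 in each of the 60 marker nuclei by mouse (1 point per nucleus, WT blue and HttQ175/+ red, black line at the median of the mouse). Sst reached 53 UMIs in WT replicate 1 and 32 in HttQ175/+ replicates 1 and 4, and the nuclei of all 7 mice overlap.

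Because these genes define the cells, the stretch of DNA in front of 2 of them is shown, each as the 100 bases before the RefSeq transcription start (GRCm38.p6). The Sst stretch lies on the minus strand at chr16:23890845-23890944 and the Npy stretch on the plus strand at chr6:49822610-49822709. Capitals mark the motif TGACGTCA, the cyclic AMP response element, which reads the same on both strands.
Sst: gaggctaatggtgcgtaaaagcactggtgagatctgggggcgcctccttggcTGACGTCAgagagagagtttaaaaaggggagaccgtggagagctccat
Npy: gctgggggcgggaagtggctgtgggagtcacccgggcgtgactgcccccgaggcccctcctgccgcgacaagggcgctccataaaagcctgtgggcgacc
The Sst stretch held the motif once, 48 to 41 bases before the start, and the Npy stretch did not hold these letters. The Nos1 stretch, which is not shown, did not hold them either. In the GENCODE annotation the Sst and Nos1 genes start further upstream, so both of these stretches lie inside the genes there. Of 32851 promoters in the RefSeq table, 379 or 1.154% held the motif in the same 100 bases. A match is a description of the sequence, and binding was not measured here.

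Other genes known from Sst interneurons were high in the marker nuclei. St6galnac2 averaged 449 CPM (counts of UMIs per 10 to the sixth UMIs, averaged over nuclei) there, Col25a1, a membrane collagen, 1524 CPM, and Chodl, a lectin-like membrane protein that marks this class in cortex, 204 CPM. Lhx6 averaged 718 CPM in the marker nuclei against 54.6 in the other annotated nuclei, and Sox6, another factor of the same lineage, 630 against 73.2. Pam, the enzyme that amidates neuropeptides including neuropeptide Y, averaged 1068 CPM against 101. Tacr1, the substance P receptor, averaged 497 CPM against 41.1, and Npy2r, a neuropeptide Y receptor, 154 against 19.2. All 7 cholinergic, all 7 Th, Cck and Vip and all 5 cortical excitatory markers summed to 0 CPM in the marker nuclei. Markers of other types were present in them. Of the 10 SPN markers 9 were detected, with a sum of 997 CPM against 1341 in the other annotated nuclei. Oligodendrocytes and astrocytes, which should lack these markers, had sums of 2613 and 1689 CPM. Drd1, a dopamine receptor of dSPNs, had a UMI in 18 of 60 marker nuclei and 9.65% of the other annotated nuclei, and Tac1, the substance P precursor of dSPNs, in 18.3% and 7.89%. Of the 7 Pvalb and Pnoc interneuron markers 2 were detected, Kcnc1 and Kit, with a sum of 285 CPM. The 6 oligodendrocyte markers summed to 143 CPM with Mbp at 0, and the 4 neurogliaform markers to 69.5 CPM with Lamp5 at 0. The part of RNA from other cells in these values was not tested. These are descriptions, since the set was chosen after seeing data of the same nuclei.

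GABA synthesis genes were scarce in the marker nuclei. Gad1, which makes most GABA in inhibitory neurons, had a UMI in 3 of 60 marker nuclei (5.0%), with 7 UMIs in all. The share was 9.83% in oligodendrocytes and 31.6% in the other annotated nuclei. Gad2, the second such enzyme, had a UMI in 5.0% of marker nuclei, 11.8% of oligodendrocytes and 27.6% of the other annotated nuclei. Slc32a1, the vesicular GABA transporter, had one in 8.33%, 6.62% and 21.5%. Median depths were 1927.5, 2158.5 and 2157.5 UMIs, so over all mice the shares of Gad1 and Gad2 in the marker nuclei were not above those of oligodendrocytes, which should lack them, and that of Slc32a1 was near it. The mice were not alike. All 7 Gad1 UMIs were in WT mice, with 139, 183 and 144 CPM in replicates 1 to 3 from 2, 3 and 2 UMIs (exact Poisson intervals 16.9 to 503, 37.8 to 535 and 17.4 to 520). Since 3 marker nuclei held Gad1, each of these levels comes from 1 nucleus, while the intervals take its UMIs as independent and are too narrow. Oligodendrocytes of these mice averaged 57.5, 11.3 and 97.5 CPM of Gad1 as means over nuclei, below the level in the marker nuclei in each mouse. In HttQ175/+ replicates 1 to 4 Gad1 had 0 UMIs, with upper bounds of 638, 190.5, 337 and 81.8 CPM. Oligodendrocytes of these 4 mice averaged 93.05, 121, 102 and 63.95 CPM of Gad1. All 3 Gad2 UMIs were in WT replicate 1. With at most 3 UMIs per mouse, no genotype difference was tested.

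Clustering the 288 nuclei on their own gave 5 subgroups, a step added after seeing the data. Subgroup 3 held 57 nuclei, 56 of them marker nuclei, and was the same size at all 3 resolutions tried. It was led by Sst, Nos1, Npy, St6galnac2, Hhip and Chodl. Subgroup 1 (90 nuclei) was led by Meis2, Rgs9, Tshz1, Rasgrp1 and Foxp2, among others, and all 10 SPN markers were detected in it, with a sum of 2996 CPM. The same markers summed to 2613 CPM in oligodendrocytes and 5681 CPM in dSPNs. Rgs9, a regulator of dopamine signalling in SPNs, had a UMI in 38.9% of subgroup 1 but in 69.2% of dSPNs and 39.5% of oligodendrocytes, so its share in subgroup 1 was no higher than in a cell type that should lack it. Meis2, a transcription factor, averaged 1864 CPM in subgroup 1 against 133 in the rest.

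Subgroup 2 (74 nuclei) was led by Cntnap5a, Pvalb, Col16a1, Adarb2, Nefm, Syt2 and Nefh, among others. Pvalb, the calcium buffer of fast-spiking cells, had a UMI in 33.8% of it against 0.935% of the rest. Of the other genes of the same marker list, Kcnc1 had a UMI in 71.6% of subgroup 2, at 785 CPM, and the rest were scarce in it. Pthlh and Pnoc had no UMI in its 74 nuclei, and Kit had one in 4.05%, Cox6a2 and Adamts5 in 2.70% each. In nuclei annotated Pnoc/Pvalb, Pvalb had a UMI in 25.8%, Kit in 80.0%, Adamts5 in 40.0%, and Pthlh and Cox6a2 in 32.5% each. Subgroup 4 (44 nuclei) was led by Kit, Hmcn2, Chd7, Th, Slit2, Trhde and Etv1; Kit had a UMI in 54.5% of it and Th, the first enzyme of dopamine synthesis, in 27.3%. Subgroup 5 (23 nuclei) was led by Slc17a7, Cck and Sv2b, and all 5 cortical excitatory markers were detected in it, with a sum of 1419 CPM. Slc17a7, a vesicular glutamate transporter, had a UMI in 78.3% of subgroup 5 and in 1.13% of the other annotated nuclei. Since 4 of the 5 subgroups had other leading genes than Sst, Npy and Nos1, no subgroup is given a cell type name.

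The subgroups took different shares of each mouse. Subgroup 2 made up 11.1%, 16.7% and 10.3% of the annotated nuclei in WT replicates 1 to 3. It made up 30.2%, 38.8%, 18.2% and 27.9% in HttQ175/+ replicates 1 to 4, so the groups do not overlap. Subgroup 3 made up 16.7% to 33.3% in WT mice and 4.65% to 33.8% in HttQ175/+ mice, and the groups overlap. No test was made of subgroup sizes, because genes that differ between genotypes may enter the clustering. Any genotype comparison over the 288 nuclei carries these shares, and their part in the results below was not tested.

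**Figure D3:**
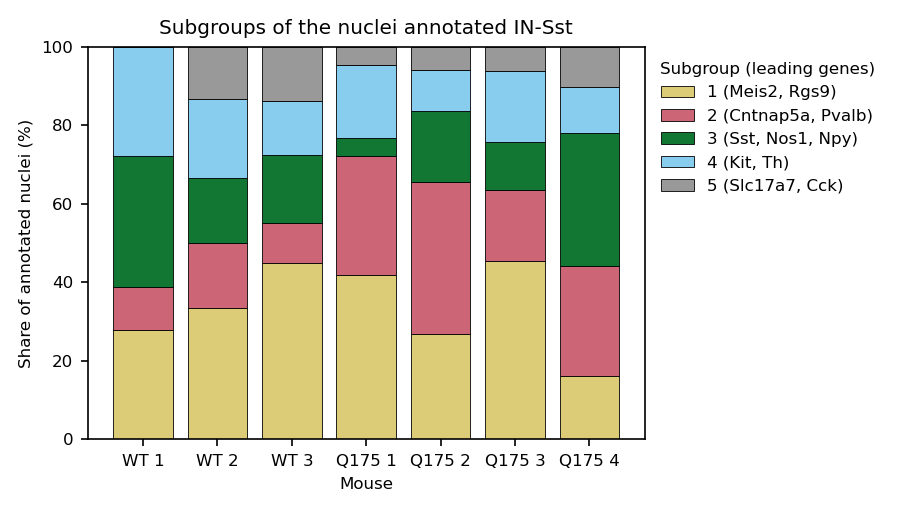
Share of the annotated nuclei of each mouse (percent, stacked bars) in subgroups 1 to 5, named by 2 or 3 leading genes. Subgroup 2 took 10.3% to 16.7% in WT mice and 18.2% to 38.8% in HttQ175/+ mice.

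Against the other annotated types, the annotated nuclei stood apart by few genes. Types were compared as mean CPM over mice with at least 5 nuclei, with no test. Sst averaged 1627 CPM (SD 1251, range 449 to 4129, n = 7 mice) in the annotated nuclei. The next highest was 239 CPM in Chat interneurons (SD 478, n = 4 mice, 1 of them at 956 and the range starting at 0), and every other type lay at or below 25.7 CPM. Npy averaged 849 CPM (SD 665) against 108 in Chat (SD 205) and 40.1 in Pnoc/Pvalb interneurons (SD 57.4). Nos1 averaged 454 CPM (SD 305) against 46.8 in Chat (SD 93.6) and 7.08 in Pnoc/Pvalb interneurons (SD 18.7). The Chat and Pnoc/Pvalb levels do not differ beyond their spread for any of the 3 genes.

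Nos1, Npy and Sst led the ranking by the log2 ratio to the highest other type (CPM plus 20), at 2.83, 2.76 and 2.67. Slc17a7 came next at 1.57, from 73.9 CPM in the annotated nuclei to 11.7 in the highest other type, and it led subgroup 5. Trh and Ptpru followed at 1.55 each. Npy2r, Col25a1, Kcnc2, Slit2, Vwc2l, Hhip, Lypd1, Trhde, Tmem130, Chga, Zcchc12, Serinc1, Ptprt and Cacna1g completed the first 20, at 1.33 down to 0.753. Cacna1g, a low-threshold calcium channel, averaged 251 CPM here against 141 in Pnoc/Pvalb interneurons. The 5 genes most like Sst across 12 types were Npy (Pearson r = 0.967), Npy2r (0.948), Nos1 (0.936), Kcnmb4os2 (0.901) and Pdcd7 (0.877). The types share libraries and differ in depth, so these correlations are a description with no p.

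The shares of annotated nuclei overlapped between genotypes. Of all nuclei in a mouse they made up 4.31%, 8.88% and 5.20% for the 3 WT mice, and 5.23%, 5.41%, 7.37% and 9.70% in HttQ175/+ replicates 1 to 4. The difference of the means was 0.8 percentage points (exact two-sided permutation test over 35 assignments of mice, p = 0.657; the smallest p the design allows is 0.0286). Among interneurons they were 62.3% ± 11.5 (SD, n = 3) in WT and 61.0% ± 11.5 (SD, n = 4) in HttQ175/+ mice, with an exact permutation p of 0.943. The median UMIs per annotated nucleus were 2316, 2582 and 2637 in WT replicates and 2268, 1726, 2516 and 2020.5 in HttQ175/+ replicates (exact permutation p = 0.114). A p above the threshold does not show that the groups are alike.

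Detection of the markers overlapped too. Thinned to 1000 UMIs, Sst had a UMI in 33.3%, 6 of 30 and 17.2% of WT annotated nuclei and in 4.65%, 14.9%, 12.1% and 33.8% of HttQ175/+ annotated nuclei, a difference of -7.15 percentage points (exact permutation p = 0.4, Benjamini-Hochberg adjusted over the 3 markers 0.857). Npy differed by 0.238 points (exact permutation adjusted p = 1.0) and Nos1 by -3.93 points (exact permutation adjusted p = 0.857).

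Htt was read before the other genes. Its mean CPM in annotated nuclei was 350, 349 and 322 in the 3 WT mice and 189, 253, 255 and 175.4 in the 4 HttQ175/+ mice, so the groups do not overlap. The fitted log2 change was -0.54 ± 0.27 (SE; adjusted p = 0.648 by limma with Benjamini-Hochberg adjustment). The knock-in changes the 5' end of the gene, and 3' reads cannot tell the alleles apart, so this value checks no label. Htt lies at chr5:34761740-34912534 (mm10, plus strand).

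No gene passed the genotype test in the annotated nuclei. With limma on log2 values, a pseudocount of 22.47 CPM having been added, 0 of 2296 genes tested were called at an adjusted p under 0.05, which is 0% called. At an unadjusted p under 0.05 there were 176 genes, 130 higher (5.66%) and 46 lower (2%) in HttQ175/+ mice. The median SE of a log2 change was 0.33. The split into higher and lower genes moved with the processing. Without scaling by trimmed means there were 91 higher and 78 lower. With limma-voom on summed UMIs, which kept that scaling, there were 56 and 100, and with summed UMIs in the main fit 143 and 53. The smallest adjusted p was 0.274. In 181 of the 2296 genes, or 7.88%, the 4 HttQ175/+ mice did not overlap the 3 WT mice, 91 higher and 90 lower. The median log2 change over all tested genes was 0.09. A gene was tested if 3 mice of any genotype reached a minimum of UMIs. One high only in HttQ175/+ mice could thus enter with 3 of 4 mice, while one high only in WT mice needed all 3. The part of this filter in the split and in the counts without overlap was not tested.

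Sst, Npy and Nos1 overlapped between genotypes over all annotated nuclei. Sst averaged 4129, 1821 and 1059 CPM in the 3 WT mice and 669, 1149, 449 and 2116 CPM in the 4 HttQ175/+ mice, with a log2 change of -1.02 ± 0.41 (SE; limma adjusted p = 0.635). WT replicate 1 and HttQ175/+ replicate 4, the highest of their groups, also had the largest shares of marker nuclei (33.3% and 35.3%), and the part of these shares was not tested. For Npy the log2 change was -0.30 ± 0.40 and for Nos1 -0.42 ± 0.42 (SE; limma adjusted p = 0.870 and 0.845). WT replicate 1 had 2289 CPM of Npy and 1029 CPM of Nos1, the highest of the 7 mice, and without it these values reversed to 0.37 and 0.08. Of the 7 Sst interneuron markers in the list, 4 were tested and 0 passed, 1 being lower at an unadjusted p under 0.05 (Sst), with a median log2 change of -0.51 against 0.09 for all tested genes. In 1 of the 4 the HttQ175/+ mice lay below the WT mice without overlap, against 90 of all 2296 tested genes.

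Within the marker nuclei, 3 to 24 per mouse, levels are given without a test. Sst was 11407, 8725 and 5753 CPM in WT replicates 1 to 3 (exact Poisson intervals 9728 to 13293, 7354 to 10278 and 4561 to 7159, counting error only). It was 8302, 6352, 3563 and 5609 CPM in HttQ175/+ replicates 1 to 4. The ranges overlap, and WT replicates 1 and 2 were the highest of all 7. Npy was 6677, 2319 and 3092 CPM in WT and 5361, 4183, 2923 and 2328 CPM in HttQ175/+ replicates, with overlap. Nos1 was 976 to 2921 CPM in WT and 1951 to 2467 CPM in HttQ175/+ mice.

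Since none passed, the genes below are the 8 higher and 8 lower genes of smallest p, without provisional names. Among those with values for each mouse, Kcnc2 and Nceh1 met the filter on UMIs through HttQ175/+ mice only. Penk and Hsp90b1 met it through WT mice only. Kcnc2, a fast potassium channel of interneurons, measured 16.4, 26.3 and 79.0 CPM in the WT mice and 141, 125, 232 and 225 CPM in HttQ175/+ replicates, with no overlap (log2 change 1.81 ± 0.44 SE, limma adjusted p = 0.301). Its level in the marker nuclei alone was 134 CPM from 6 UMIs in WT and 259 CPM from 21 UMIs in HttQ175/+ mice. The intervals were 49.3 to 292 and 160 to 395. Levels by genotype in marker nuclei and subgroups, here and below, pool the UMIs of its mice, and their intervals leave out the spread between mice. Nceh1, a lipid hydrolase, measured 75.5, 35.1 and 41.3 CPM in WT and 203, 142, 158 and 156 CPM in HttQ175/+ replicates (1.45 ± 0.37 SE, limma adjusted p = 0.329). Slc38a1, a glutamine transporter of inhibitory neurons, measured 92.8, 116 and 144 CPM in WT and 250, 255, 258 and 247 CPM in HttQ175/+ replicates (1.049 ± 0.28 SE, limma adjusted p = 0.373). In dSPNs Slc38a1 was also higher without overlap, at 73.5, 64.4 and 65.0 CPM in WT and 100, 130, 91.0 and 109 CPM in HttQ175/+ replicates. In iSPNs it averaged 91.1 and 98.4 CPM, with overlap. Fth1, the ferritin heavy chain, measured 162, 0 and 0 CPM in WT and 454, 339, 284 and 93.4 CPM in HttQ175/+ replicates, which overlap (2.70 ± 0.60 SE, limma adjusted p = 0.274). Without WT replicate 1 Fth1 was called at a limma adjusted p of 0.000752. Fth1 averaged 5513 CPM in WT and 2236 in HttQ175/+ oligodendrocytes, and 497 and 986 CPM in astrocytes, and the part of RNA from glia was not tested.

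The other higher genes of smallest p were Adarb2 (log2 change 1.56), Madd (1.32), mt-Co1 (1.06) and Gpi1 (1.196). Madd was also higher without overlap in dSPNs (mean 124 CPM in WT and 179 in HttQ175/+ mice) and in iSPNs (134 and 205 CPM). Adarb2, an RNA-binding protein of the editing enzyme family, was highest in subgroup 2, where it measured 297 CPM in WT from 9 UMIs and 519 CPM in HttQ175/+ mice from 92 UMIs. In the marker nuclei it had no UMI in either genotype (0 of 17 WT nuclei, upper bound 82.6 CPM; 0 of 43 HttQ175/+ nuclei, upper bound 45.4 CPM).

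Among the genes with lower values, Gaa came first, encoding the lysosomal alpha-glucosidase. Gaa measured 238, 456 and 278 CPM in WT and 110, 89.4, 158 and 83.2 CPM in HttQ175/+ replicates, with no overlap (log2 change -1.31 ± 0.31 SE, limma adjusted p = 0.301). In the marker nuclei, pooled over mice, it was 604 CPM from 27 UMIs in WT (398 to 879). It was 111 CPM from 9 UMIs in HttQ175/+ mice (50.7 to 210), where 24 of the 43 marker nuclei were from replicate 4. These intervals leave out the spread between mice, and Gaa was picked from a fit that holds the same nuclei. In dSPNs Gaa averaged 58.7 CPM in WT mice and 83.1 in HttQ175/+ mice, with overlap. Hsp90b1, an endoplasmic reticulum chaperone, measured 291, 156 and 228 CPM in WT and 70.1, 94.0, 106 and 91.0 CPM in the 4 HttQ175/+ mice (-1.04 ± 0.30 SE, limma adjusted p = 0.571). In dSPNs it measured 94.35, 39.1 and 182 CPM in WT and 48.3, 50.55, 63.3 and 50.5 CPM in HttQ175/+ replicates, with overlap. In iSPNs Hsp90b1 was also lower, without overlap, at 147, 127 and 171 CPM in WT and 60.7, 54.8, 74.8 and 87.2 CPM in HttQ175/+ replicates.

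Penk and Rgs9 are SPN genes and did not overlap between genotypes. Penk, the enkephalin precursor of iSPNs, measured 199, 173 and 298 CPM in WT and 47.7, 42.6, 30.9 and 12.01 CPM in HttQ175/+ replicates (-2.10 ± 0.52 SE, limma adjusted p = 0.301). In WT mice 33 of its UMIs were in subgroup 1, 3 in subgroup 4 and 0 in the other subgroups and the marker nuclei. Oligodendrocytes, which should lack it, averaged 258 CPM in WT and 102 in HttQ175/+ mice, while iSPNs averaged 1498 and 381. Rgs9 measured 273, 347 and 375 CPM in WT and 170, 165, 120 and 102 CPM in HttQ175/+ replicates (-1.08 ± 0.29 SE, limma adjusted p = 0.373). In oligodendrocytes it averaged 730 CPM (WT) and 487 CPM (HttQ175/+), above the level in the annotated nuclei, although Rgs9 should be lacking there. In WT nuclei Rgs9 had 68 UMIs in subgroup 1, 0 in subgroups 2, 3 and 4, and 4 in subgroup 5. The marker nuclei of WT mice held 6 of its UMIs. Rgs9 is a leading gene of subgroup 1, so an uneven spread in part follows from the clustering of these nuclei. The part of free RNA in these values was not tested. Pcp4 (-1.25), Spock2 (-0.86), Pbx3 (-0.97) and Vsnl1 (-0.87) completed the named genes.

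**Figure D4:**
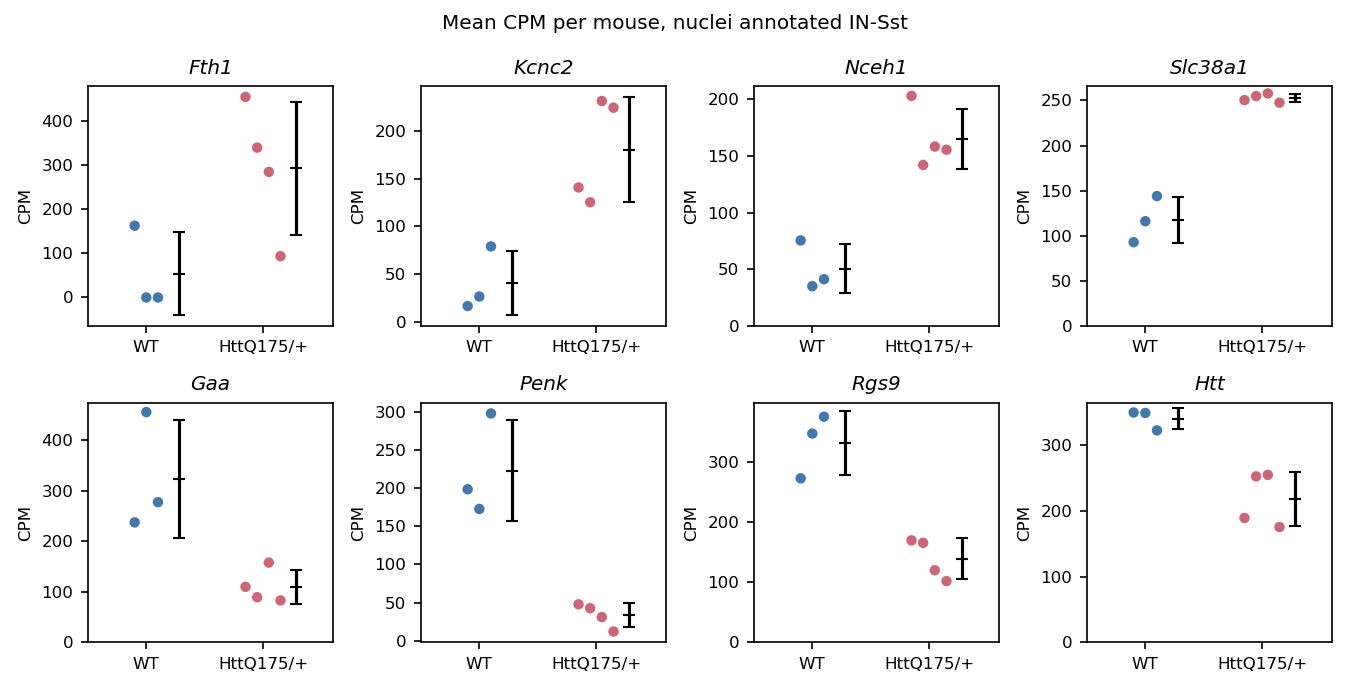
CPM in each mouse (points, WT blue and HttQ175/+ red, linear axes) for 7 genes that did not pass the test and Htt, with the mean and SD over mice beside them. Kcnc2, Nceh1, Slc38a1, Gaa, Penk and Rgs9 do not overlap between genotypes, nor does Htt, while Fth1 does.

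Gene lists were read by counts and medians, with none of 21 lists holding a called gene. Over all 2296 tested genes, 5.66% were higher and 2% lower at an unadjusted p under 0.05, with a median log2 change of 0.09, and the counts below stand against these shares. Of the GABA synthesis and transport list, 7 of 11 were tested and 1 was at an unadjusted p under 0.05, Slc38a1; the median log2 change was 0.14. Slc12a5, the chloride exporter of mature neurons, averaged 289 CPM in WT and 264 in HttQ175/+ mice. Of the nitric oxide and cyclic GMP list, 8 of 22 in the table were tested, 0 at that level, with a median of 0.08 and Nos1 at -0.42. Of the neuropeptide and dense core vesicle list 17 of 30 were tested, 4 lower (Sst, Scg2, Cadps and Penk) and 0 higher at that level, with a median of -0.47. Of its members, Scg2, a granin, averaged 474 CPM in WT and 295 in HttQ175/+ mice (-0.64), and Pcsk1n 495 and 513. Both Sst and Penk are also in this list, and Penk's level is given above. The interneuron lineage factors had 8 of 27 tested, 1 lower and 0 higher at that level, and a median of -0.23. The lower gene was Nfib, which averaged 497 and 303 CPM with overlap, while Elavl2, an RNA-binding protein, averaged 357 and 355 CPM.

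SPN identity genes were read in the same way. Of 40, 15 were tested, 4 were at an unadjusted p under 0.05 (all lower, against 2% of all tested genes) and the median log2 change was -0.48, against 0.09. In dSPNs of the same mice, 39 were tested and 28 were called lower and 0 higher, with a median of -0.85. Over all 8796 genes tested in dSPNs, 220 (2.5%) were called lower and 127 (1.44%) higher, with a median of 0.03. Both fits use the same mice and libraries. Meis2 averaged 1026 CPM in WT and 624 in HttQ175/+ annotated nuclei, and Pde10a, the main phosphodiesterase of SPNs, 488 and 451.

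No ion channel or receptor gene passed the test. Of 15 glutamate receptor genes tested, 2 were higher at an unadjusted p under 0.05, Gria1 and Gria4, and the median log2 change was -0.03. Gria1, an AMPA receptor subunit, measured 236 CPM in WT and 410 in HttQ175/+ mice, with overlap. Of 17 potassium channel genes, 1 was higher at that level, Kcnc2, with a median of 0.32. Of 19 sodium and calcium channel genes, 2 were higher, Cacna2d2 (190 and 320 CPM) and Scn2b, with a median of 0.16. Of 18 synaptic adhesion genes, 1 was higher, Cntnap5a, which leads subgroup 2, and the median was 0.10.

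No stress or mitochondrial gene passed the test either. Of 6 mitochondrially encoded genes tested, 3 were higher at an unadjusted p under 0.05, against 5.66% of all tested genes, and the median was 0.86, against 0.09. Of the 6, 1 was higher without overlap between genotypes, mt-Co1, against 91 of all 2296 tested genes. mt-Co1 measured 130, 303 and 208 CPM in WT and 344, 666, 396 and 368 CPM in HttQ175/+ replicates. The mean share of mitochondrial UMIs per annotated nucleus ran from 0.064% to 0.148% in WT and 0.12% to 0.282% in HttQ175/+ mice, with its highest value in HttQ175/+ replicate 2, and its part in these values was not tested. In dSPNs the mitochondrially encoded list had a median of -0.43. Of 10 heat shock genes, 1 was lower at that level, Hsp90b1, with a median of -0.02, and of 8 oxidative phosphorylation genes none was, with a median of -0.07. Of 9 nuclear long non-coding RNAs, 2 were higher and 1 lower at that level; Meg3, the most abundant after Malat1, averaged 37514 CPM in WT and 39470 in HttQ175/+ mice.

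The genotype change in annotated nuclei was set against that in dSPNs within the same mice, fitted as a difference per mouse. The pseudocount was 22.47 CPM in annotated nuclei and 3.67 CPM in dSPNs, which shrinks changes at low levels more in annotated nuclei. The part of this inequality in the differences was not tested. Of 2248 genes, 3 were called, which is 0.133%. Syt2, a calcium sensor of fast transmitter release, measured 139, 48.9 and 51.0 CPM in WT and 130, 149, 158 and 112 CPM in HttQ175/+ annotated nuclei. In dSPNs it measured 89.4, 74.8 and 69.6 CPM in WT and 32.5, 32.6, 17.5 and 25.2 CPM in HttQ175/+ mice. The change was 0.81 ± 0.37 in annotated nuclei and -1.55 ± 0.24 in dSPNs, a difference of 2.36 ± 0.35 (log2, SE; limma adjusted p = 0.0195). In subgroup 2, pooled over mice, Syt2 was 423 CPM from 75 UMIs in 64 HttQ175/+ nuclei (333 to 530). It was 264 CPM from 8 UMIs in 10 WT nuclei (114 to 520), and the intervals overlap. Syt2 had 0 UMIs in the marker nuclei.

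Lrrn2, a leucine-rich repeat protein of the membrane, measured 48.3, 29.3 and 37.9 CPM in WT and 63.7, 182, 132 and 120 CPM in HttQ175/+ annotated nuclei, without overlap. In annotated nuclei Lrrn2 met the filter on UMIs through HttQ175/+ mice only. In dSPNs it fell from 116 CPM in WT to 77.4 in HttQ175/+ mice, and the difference of changes was 1.94 ± 0.34 (log2, SE; limma adjusted p = 0.0484). Vwa5b2 differed in the other direction. It measured 155, 243 and 220 CPM in WT and 243, 310, 209 and 259 CPM in HttQ175/+ annotated nuclei, whereas dSPNs measured 15.1, 13.8 and 6.80 CPM in WT and 101, 139, 98.7 and 123 CPM in HttQ175/+ mice. The difference was -2.52 ± 0.39 (log2, SE; limma adjusted p = 0.0195). The number called was 0 without WT replicate 3 or HttQ175/+ replicates 2, 3 or 4, and 10 without WT replicate 2. Without scaling by trimmed means there were 6 calls, 1 higher and 5 lower, against 2 and 1, and the median of all genes moved from 0.07 to -0.11.

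**Figure D5:**
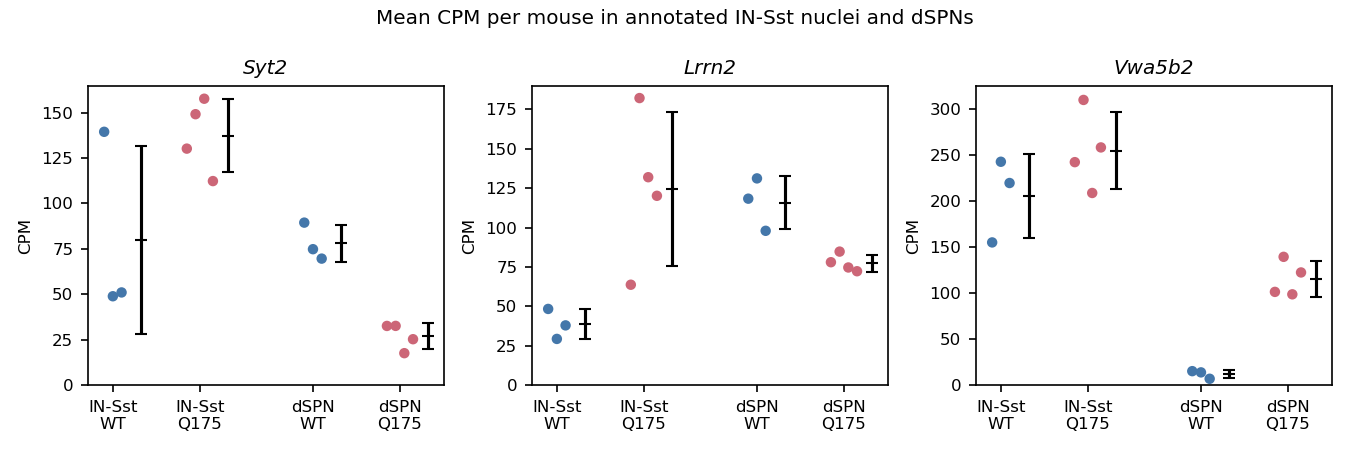
CPM per mouse of the 3 genes called in the difference fit (points, WT blue, HttQ175/+ red, with mean and SD), in annotated nuclei and in dSPNs. Vwa5b2 rises from under 16 to over 98 CPM in dSPNs, while the annotated nuclei start at 155 CPM or more.

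The next genes by p in this comparison had limma adjusted p from 0.0523 to 0.0968. Ahsa2, Col11a1, Ccdc136 and Baiap3 were higher in dSPNs of HttQ175/+ mice and had log2 changes of -0.25, -0.21, 0.14 and -0.45 in annotated nuclei. Col11a1, a fibrillar collagen, measured 429 CPM in WT and 312 in HttQ175/+ annotated nuclei but 8.08 and 55.1 CPM in dSPNs. Ccdc136 measured 144 and 153 CPM in annotated nuclei and 0.95 and 22.1 in dSPNs. Nucks1, Ssbp4 and Eef2 were higher in annotated nuclei by 1.62, 1.73 and 1.74 and in dSPNs by 0.07, -0.40 and -0.13 (log2).

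Against the other interneurons, which met the minimum of 10 nuclei in every mouse, 0 of 968 genes were called, which is 0%. The count at an unadjusted p under 0.05 was 82, and the smallest limma adjusted p was 0.328. Without WT replicate 1 there were 3 calls, mt-Atp6, Pbx3 and Sez6. Pbx3, a homeobox factor, measured 330, 296 and 338 CPM in WT and 226, 137, 181 and 77.1 CPM in HttQ175/+ annotated nuclei. In the other interneurons it measured 210, 51.2 and 60.3 CPM in WT and 329, 219, 532 and 411 CPM in HttQ175/+ mice, a difference of changes of -2.67 ± 0.53 (log2, SE; limma adjusted p = 0.328). The other interneurons of HttQ175/+ mice held 6 to 26 Chat nuclei per mouse and those of WT mice 1 to 4, and the part of this mix was not tested. Bcan, a proteoglycan of perineuronal nets, averaged 95.4 and 167 CPM in annotated nuclei and 292 and 101 CPM in the other interneurons, and Hnrnph1 239 and 422 against 412 and 209 CPM. Rpl41, mt-Atp6, Asap1, Erc2, Sez6, Ptprs and Dmd were the other genes of smallest p, with limma adjusted p from 0.415 to 0.501. Both difference fits use the same annotated nuclei.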

How the data were processed

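Single nuclei of striatum from 7 mice were measured with the Chromium 3' kit, and the submitters' processing notes name Cell Ranger 3.0.2, Seurat and mm10. The authors deposited values on a natural log scale, each the natural log of 1 plus UMIs per 10000 of the nucleus, over 27998 genes. Whole UMIs were recovered for 100% of the 5824756 values above 0 (tolerance 0.02). The authors' deposited metadata give each nucleus its cell type. The sources used here do not say how types were named, how strand was used or whether doublets had been removed.

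The linear values were averaged over nuclei for each mouse. The limma-trend method (limma 3.58.1, R 4.3.3) was applied to log2 of CPM plus 2 UMIs of the median mouse (22.47 CPM in annotated nuclei), after scaling by trimmed means of M values (factors 0.967 to 1.115). The pseudocount shrinks the changes of weakly expressed genes. A gene was tested if its UMIs numbered 15 or more over all mice and, at the median sum, 10 or more in 3 mice of any genotype. Benjamini-Hochberg adjusted p under 0.05 was the threshold. Differences between types were fitted per mouse, each type having its own pseudocount. These were 22.47 CPM in annotated nuclei, 3.67 CPM in dSPNs and 34.83 CPM in other interneurons, so changes at low levels were shrunk unequally. P-values measure the spread between mice. Printed CPM are before scaling. Single values had an exact permutation test over 35 assignments (scipy 1.17.1). Thinning was to 1000 UMIs. Subgroups used 1500 genes, 15 components and Leiden resolution 0.6 in scanpy 1.11.5, with resolutions 0.4 and 1.0 also run. Scrublet marked 60 of 4524 nuclei (1.326%) as doublets, 2 of them annotated. The fits were tested on simulated data.

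Named genes followed this rule: Sst, Npy, Nos1 and Htt always; the 12 largest passing changes of each direction without overlap between genotypes at 20 CPM or more, or, with fewer than 5, also the 8 genes of that direction with the smallest p; for differences, the 5 of each direction with the smallest p; by type, the 20 largest ratios and the 5 genes most like Sst; and, of lists, up to 4 members of highest mean CPM. List members outside those 4 were named after their values were seen, for their unadjusted p. Provisional gene names were not named. Coordinates are from GENCODE vM21 (mm10). The members and lists were chosen with earlier results of these data known. Replicate numbers are in accession order and pair no mice. Whether mice were littermates is not stated in the labels. Some genes are not reported here.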

Additional observations from a re-analysis of the deposited data

Results flagged for a closer look

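The level of mt-Co1 in annotated nuclei was 666 CPM in HttQ175/+ replicate 2, against 344 to 396 CPM in the other HttQ175/+ mice, a gap large for the range of 4 mice. Chance gives such a gap in about 1 of 20 groups, and 47 values were examined. The same mouse had the lowest median UMIs and the highest share of mitochondrial UMIs among the 7, and their part was not tested.

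Syt2, Vwa5b2 and Lrrn2 differed between annotated nuclei and dSPNs in the test of the difference itself. The differences of genotype changes were 2.36 for Syt2, -2.52 for Vwa5b2 and 1.94 for Lrrn2 (log2). Over the alternatives in which each was tested, the limma adjusted p ranged from 0.00727 to 0.0901 for Syt2, from 0.00414 to 0.156 for Vwa5b2 and from 0.0235 to 0.0959 for Lrrn2.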

How the results depend on the processing

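No gene was called between genotypes in annotated nuclei under 16 of 18 alternatives. The exceptions were no filter on low values, with 2 calls (Fth1 and Penk, limma adjusted p 0.0113 and 0.012), and leaving out WT replicate 1, with 1 call (Fth1), so leaving out 1 mouse gave 0 to 1. Against dSPNs the 3 calls became 5 with a pseudocount of 1 UMI, 6 with 4 UMIs, 6 without scaling, 14 without the filter and 0 to 10 on leaving out 1 mouse. Against other interneurons leaving out 1 mouse gave 0 to 3 calls, 3 of them without WT replicate 1. The cause of these changes was not tested. Raising the filter to 30 UMIs over all mice, which is among the 16, kept the same genes as the main fit. It could therefore not change a count. In alternatives chosen after seeing the data, leaving out the marker nuclei gave 0 calls of 1878 genes between genotypes and 2 of 1849 against dSPNs, and leaving out the Slc17a7 subgroup gave 0 of 1909 and 2 of 1871. On leaving out 1 mouse, Npy ranged from -0.69 to 0.37 and Nos1 from -0.91 to 0.08 (log2), both reversed without WT replicate 1. Sst ranged from -1.44 to -0.56 and Htt from -0.62 to -0.46. The differences in shares, depth and marker detection missed the threshold under the alternatives run, which for leaving out 1 mouse says nothing about stability, since the smallest exact two-sided p is then 0.1 (3 against 3) or 0.0667 (2 against 4). Their direction was not stable: over the alternatives the difference in share ran from -0.125 to 2.17 percentage points among all nuclei and from -6.81 to 4.65 among interneurons, and Npy detection from -4.07 to 4.42. No paired analysis was possible because replicate numbers follow accession order and pair no mice. With 18 to 68 nuclei and 42074 to 152312 UMIs per mouse, depth limited the test to 2296 genes, and weakly expressed genes could not be tested.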
